A study of Rattus norvegicus with 70 samples.

Results

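Genes of the brown adipocyte's heat-producing program were followed across rat fat: Ucp1, Cidea, Ppargc1a, Cox8b, Kcnk3, Otop1, Letmd1, Elovl3 and Prdm16. They were chosen by name and looked up by NCBI gene number in 6 count tables of 15319 genes each. Of the 9, 8 were found, and Prdm16 was not analysed here. The 3 depots were BAT, the brown fat that makes heat, SAT, the fat under the skin, and VAT, the fat around the viscera, and the donors were 24 Sprague-Dawley rats of an outbred laboratory stock. The rats breathed PCB 52, a chlorinated biphenyl of the kind found in indoor air, or were in a sham group, and the question was what inhaled PCB 52 changes in fat. They were exposed through the nose on 28 days for 4 h each; males were 39 and females 42 days old at the start, and sex therefore came with a difference in age. The 70 libraries made 12 groups of sex, depot and treatment, each of 6 libraries except female SAT sham and male VAT PCB 52 with 5. No allele is named in the labels; what the sham group inhaled and which visceral pad was dissected are not given there. Even rat numbers were female and odd ones male, 1 to 12 were sham and 13 to 24 PCB 52, and the same number in different depots was read as the same rat, which the labels do not say.

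Brown adipocytes hold many mitochondria and small fat droplets, and turn fuel into heat when sympathetic nerves release noradrenaline. The signal runs from the beta-3 adrenergic receptor through cAMP to lipolysis and to transcription, where the coactivator encoded by Ppargc1a drives mitochondrial and thermogenic genes. UCP1, in the inner mitochondrial membrane, lets protons return without making ATP, so that the energy of respiration leaves as heat. Among the other genes, Cox8b encodes a subunit of cytochrome c oxidase, Letmd1 a mitochondrial protein needed for brown fat thermogenesis, Cidea a lipid droplet protein, Kcnk3 a potassium channel, Otop1 a proton channel, and Elovl3 a fatty acid elongase.

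The starts of the genes were searched for 5 motifs that bear on this cAMP signal, on nuclear receptors and on the core promoter. RefSeq windows of the GRCr8 assembly, from 250 bases before to 50 bases after the annotated start, were at hand for 8 of the 9 genes, all but Kcnk3. Of the windows, 3 are printed because they hold the matches: Ppargc1a at chr14:63634058-63634357 on the plus strand, Ucp1 at chr19:41721372-41721671 on the minus strand and Cox8b at chr1:205408224-205408523 on the minus strand. Capitals mark the cAMP response element TGACGTCA, its half-site TGACG and the TATA box TATAAA on either strand.
Ppargc1a: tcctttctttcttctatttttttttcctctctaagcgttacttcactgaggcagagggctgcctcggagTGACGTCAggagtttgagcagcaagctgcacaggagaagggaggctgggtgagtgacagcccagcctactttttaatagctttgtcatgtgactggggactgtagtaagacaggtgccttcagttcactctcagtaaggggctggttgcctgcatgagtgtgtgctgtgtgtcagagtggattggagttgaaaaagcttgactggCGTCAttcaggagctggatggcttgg
Ucp1: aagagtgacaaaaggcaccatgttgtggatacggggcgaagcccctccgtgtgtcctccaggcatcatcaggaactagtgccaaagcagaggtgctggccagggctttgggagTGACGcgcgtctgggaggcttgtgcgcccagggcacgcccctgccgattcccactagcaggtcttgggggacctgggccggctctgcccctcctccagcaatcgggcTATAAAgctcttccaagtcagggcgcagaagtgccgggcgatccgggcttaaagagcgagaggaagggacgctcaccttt
Cox8b: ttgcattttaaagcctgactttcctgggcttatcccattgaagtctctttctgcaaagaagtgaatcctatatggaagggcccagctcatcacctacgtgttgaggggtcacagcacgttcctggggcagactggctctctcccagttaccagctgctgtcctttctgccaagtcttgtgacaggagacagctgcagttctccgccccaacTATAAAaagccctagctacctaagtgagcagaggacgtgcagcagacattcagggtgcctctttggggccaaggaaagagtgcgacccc
The full cAMP response element was found in 1.83% of 33469 rat promoters and, of the 8 windows, in that of Ppargc1a alone, where it begins 181 bases before the start. The half-site, which overlaps the full element, occurred in 21.2% of promoters, among them Ppargc1a, with a further match 24 bases after the start, and Ucp1, 137 bases before it. TATAAA occurred in 14.2% of promoters and lay 30 bases before the start of Ucp1 and 39 before that of Cox8b. The nuclear receptor half-site AGGTCA (16.2% of promoters) and the longer TCAAGGTCA (0.433%) were in none of the 8 windows. GC content was 62.0% in the window of Ucp1, 50.3% in that of Ppargc1a and 52.7% in that of Cox8b. These matches are letters in a short window and were not tied to binding by any file here.

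Total counts per library ran from 4604116 to 9707132, so a gene with no count can lie at up to 0.309 to 0.652 CPM (counts-per-million of the library total); such limits and the intervals given cover counting error only. The depot labels were checked against marker genes. All 11 mature adipocyte genes in the tables were detected in every group of every depot, yet their summed level in SAT ran from 4410 to 40820 CPM. Milk and epithelial genes of the mammary gland summed to 10.8 to 230100 CPM in SAT and to at most 7.72 CPM in BAT. Skeletal muscle genes, 18 in the tables, summed to 363 to 65600 CPM in BAT and 36.7 to 28870 CPM in SAT, but to at most 66.2 CPM in VAT outside 1 library. Libraries that stand apart for the genes described here are BAT of rats 24 and 23 and VAT of rats 4 and 8. SAT of rat 19 stands apart as well. In the fits, BAT of rat 23 was left out only when each rat was left out in turn. Some of the results that the others touch are also given without them. SAT of rat 8, with 26.8% of its counts in ribosomal protein genes beside at most 8.93% in the other libraries and the fewest detected genes (11108), was left out in the same alternatives. So was VAT of rat 13, labelled male, whose summed Y-linked genes had no count where the other male libraries held 92.9 to 204 CPM; it goes against its label and is 1 of the 5 male VAT PCB 52 libraries. In bulk tissue, fewer cells of a type and less RNA per cell cannot be told apart.

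Ucp1, the uncoupling protein that defines the tissue, separated BAT from both other depots. In sham rats its level in BAT ran from 3494 to 9569 CPM in females (median 5503) and from 4423 to 9239 CPM in males (median 6375). In SAT only 8 of 23 libraries held a Ucp1 count and the highest level was 1.38 CPM. In VAT 9 of 23 libraries held one, and only 3 held 10 counts or more. No SAT library and no VAT library reached the lowest level in sham BAT. Pooled over the sham libraries of a group, Ucp1 was 27030-fold higher in BAT than in SAT in females and 31460-fold in males, on 8 and 9 counts in all sham SAT libraries of the sex. Against VAT the pooled level was 63.8-fold higher in females, where rats 4 and 8 hold nearly all the counts, and at least 93150-fold higher in males, where all 6 sham VAT libraries had no count and the bound uses 3 counts over the group.

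Across sham rats of both sexes, all 7 genes that passed the expression filter were higher in BAT than in SAT and higher in BAT than in VAT by edgeR's quasi-likelihood test at a Benjamini-Hochberg adjusted p under 0.05, which 26.6% and 23.7% of 12228 genes tested also were; a further 37.5% and 29.1% were lower in BAT. The genes are known for BAT, and a gene without counts elsewhere passes the filter through BAT, so these counts describe the depots and are no independent support. Their median log2 fold change was 6.19 over SAT and 5.88 over VAT, beside -0.17 and -0.12 for all genes tested. Ucp1 itself was 14.96 higher in log2 than in SAT (SE 1.35, adjusted p = 2.42e-10) and 12.35 higher than in VAT (SE 1.22, adjusted p = 2.47e-09).

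**Figure D1:**
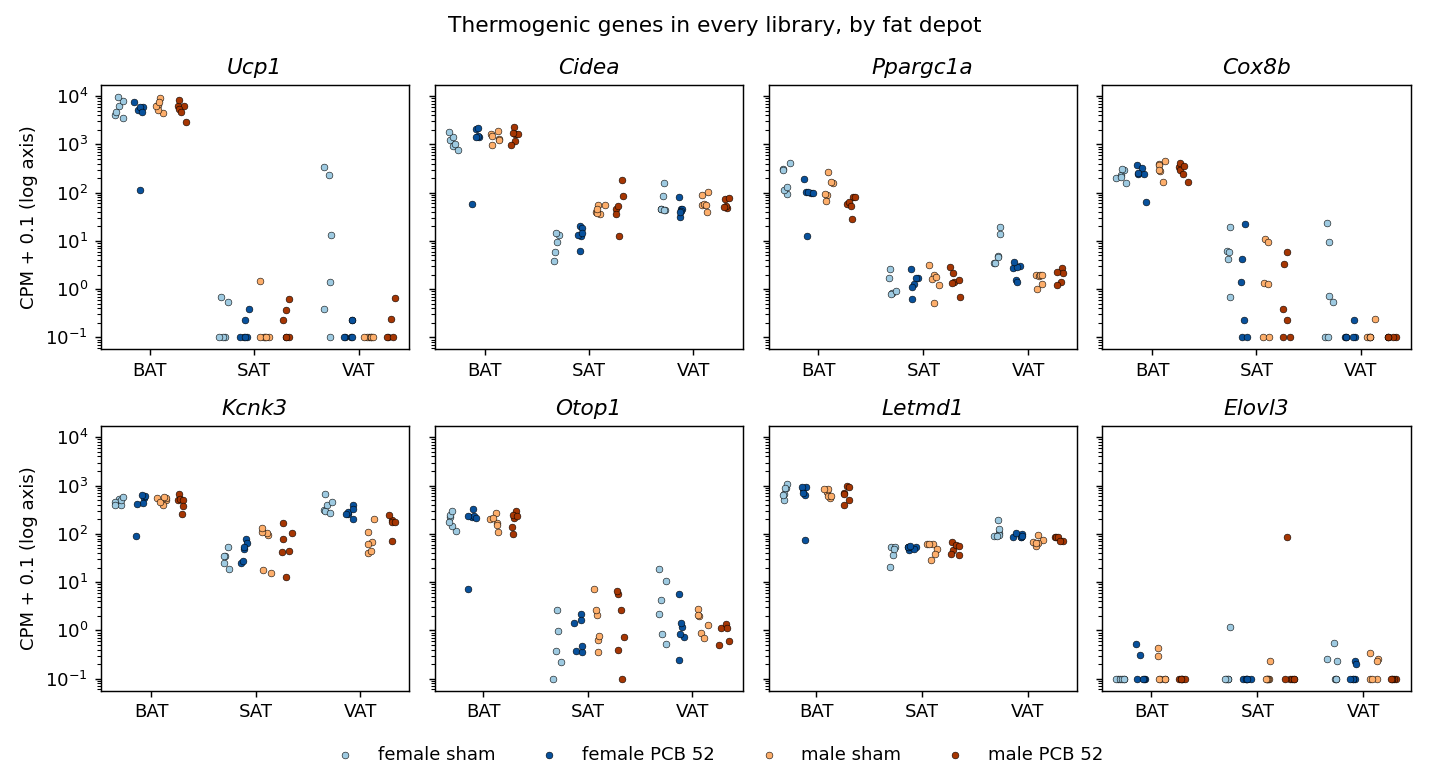
Level of each of the 8 genes in every library, in CPM plus a small constant on a log axis, by depot, with colours for sex and treatment. Apart from 1 female PCB 52 library, of rat 24, BAT stands above SAT and VAT for all genes but Elovl3 and, in females, Kcnk3, which overlaps with VAT.

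The 2 mitochondrial genes differed in how empty the other depots were. Cox8b ran from 155 to 312 CPM in female sham BAT (median 221) and from 169 to 456 CPM in male sham BAT (median 338). In VAT 17 of 23 libraries had no Cox8b count, and the male sham libraries held 1 count in all, which puts the pooled male BAT level 13910-fold above VAT with a counting interval of 2497 to 549600. In SAT the gene was found in 17 of 23 libraries at up to 22.2 CPM, beside very different levels of Ckm, the muscle creatine kinase gene. Rat 18 held 22.2 CPM of Cox8b and 3567 of Ckm, rat 12 held 18.9 and 2889, rat 3 held 10.9 and 1503 and rat 9 held 9.31 and 1395. Rat 8 had the highest Ckm level, 4231 CPM, with 5.95 CPM of Cox8b. The 6 SAT libraries with no Cox8b count had 0 to 29.2 CPM of Ckm. Cox8b is also a gene of striated muscle, and the part of muscle in its SAT level was not tested. The fitted log2 difference was 5.97 over SAT (SE 0.726, adjusted p = 1.97e-08) and 9.38 over VAT (SE 0.903, adjusted p = 2.78e-10).

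Letmd1 was present in every library of every depot. It ran from 509 to 1052 CPM in female sham BAT and from 558 to 863 CPM in male sham BAT, against 20.8 to 66.1 CPM over all SAT libraries and 54.6 to 193 CPM over all VAT libraries. The sham libraries of BAT and of the other depots did not overlap. The difference was 4.24 in log2 over SAT (SE 0.184, adjusted p = 9.31e-18) and 3.28 over VAT (SE 0.168, adjusted p = 4.44e-16). These SEs were the smallest of the 7 genes.

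Cidea, the lipid droplet gene, ran from 773 to 1841 CPM in female sham BAT (median 1115) and from 963 to 1852 CPM in male sham BAT (median 1365). The levels in SAT ran from 3.79 to 186 CPM with a median of 20.6, and in VAT from 31.7 to 161 CPM with a median of 49.8. It was thus detected in all 70 libraries, and the order was BAT, VAT and SAT. Its log2 difference was 6.19 between BAT and SAT (SE 0.303, adjusted p = 3.87e-17), 4.46 between BAT and VAT (SE 0.263, adjusted p = 5.82e-15) and -1.73 between SAT and VAT (SE 0.246, adjusted p = 1.20e-06).

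Kcnk3, the potassium channel gene, was the exception among the 7 in VAT. In females its sham level was 389 to 593 CPM in BAT and 273 to 653 CPM in VAT, so the groups overlapped, and the pooled level in BAT was 1.22-fold that in VAT. In males it was 403 to 569 CPM in BAT and 40.1 to 200 CPM in VAT, with no overlap and a pooled ratio of 5.68. Over both sexes the log2 difference was 1.63 (SE 0.277, adjusted p = 1.01e-05); in females alone it was 0.44 with an adjusted p of 0.219 and in males alone 2.91 with an adjusted p of 1.05e-04, a difference between the sexes that was not itself tested. Against SAT, where it ran from 12.6 to 171 CPM, the log2 difference was 3.48 (SE 0.312, adjusted p = 3.32e-11).

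Otop1, the proton channel gene, ran from 113 to 291 CPM in female sham BAT and from 109 to 273 CPM in male sham BAT. Its medians over all libraries of SAT and VAT were 0.681 and 1.07 CPM, close to the level of a few counts. The log2 difference was 7.45 over SAT (SE 0.579, adjusted p = 1.18e-12) and 6.24 over VAT (SE 0.507, adjusted p = 6.84e-12). Between SAT and VAT it was -1.21 with an adjusted p of 0.0686.

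Ppargc1a, the regulator of the group, had its lowest sham BAT library at 66.2 CPM and its highest at 407 CPM, a wider relative spread than that of the genes above. Every one of the 23 SAT libraries lay between 0.408 and 3.07 CPM and every VAT library between 0.897 and 18.9 CPM. The log2 difference was 7.17 over SAT (SE 0.417, adjusted p = 1.48e-15) and 5.88 over VAT (SE 0.366, adjusted p = 1.74e-14).

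Elovl3, which in mice is a gene of cold-activated brown fat, was close to absent from these BAT libraries. It had 7 counts over all 24 BAT libraries, with a count in 4 of them and a highest level of 0.421 CPM. In VAT it was found in 8 of 23 libraries at up to 0.437 CPM. The one library with a clear level was SAT of male PCB 52 rat 19, at 86.2 CPM from 579 counts, against at most 1.08 CPM in the other 22 SAT libraries. The same library held 51790 CPM of Mup4, 1739 CPM of Elovl4, 384 CPM of Acsbg1, 67.9 CPM of Mc5r and 33.5 CPM of Fa2h, each above all other SAT libraries. These genes come from a short list for the sebaceous gland of the skin made after the values were seen, of which 5 of 7 stood above every other SAT library. Its Cidea level, 186 CPM, was also the highest in SAT, with the next at 86.1 CPM.

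Between SAT and VAT of sham rats, 25.6% of genes tested were higher in SAT and 20.3% lower. Of the 6 genes compared, Cox8b was higher in SAT by 3.41 in log2 (SE 1.01, adjusted p = 0.00645), and Cidea, Kcnk3, Letmd1 and Ppargc1a were lower, by -1.73, -1.85, -0.96 and -1.29. These calls were not all found in each sex alone, and the difference between the sexes was not tested. In females alone Cox8b differed by 0.29 (adjusted p = 0.850), and in males alone Cidea differed by -0.41, Kcnk3 by -0.02, Letmd1 by -0.35 and Ppargc1a by 0.17, with adjusted p from 0.173 to 0.979. Without the libraries that stand apart Ppargc1a differed by -0.73 (adjusted p = 0.110), and with the animal as a replicate block by -1.13 (adjusted p = 0.0564). Ucp1 was at or near 0 in both depots and no fold is given. The mature adipocyte genes were also lower in SAT than in VAT, Plin1 by -2.43 and Lipe by -2.25, and their part in these differences was not tested. Over the 23 SAT libraries Cox8b rose with the muscle gene Ckm (Spearman's rho of 0.931). The part of muscle in the Cox8b difference was not tested either.

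The wider pathway was compared between the same depots. Over all genes tested, 26.6% were higher and 37.5% lower in BAT than in SAT. Against VAT 23.7% were higher and 29.1% lower. Of 21 genes of mitochondrial fuel supply, 20 were higher in BAT than in SAT and 1 was lower, with a list median of 3.71 in log2, and the counts against VAT were also 20 and 1 with a median of 3.22. Slc27a2, a fatty acid transporter, was 8.75 higher in log2 than in SAT, Cpt1b, the muscle-type carnitine palmitoyltransferase that admits fatty acids to mitochondria, 6.19, and the acyl-CoA thioesterase gene Acot11 5.54. Ucp2, a relative of Ucp1 found in many tissues, was the lower one, by -2.01 against SAT and -0.95 against VAT.

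Genes of adrenergic and thyroid signalling split more. Of 15 tested, 11 were higher in BAT than in SAT, and 7 were higher than in VAT. Dio2, which makes active thyroid hormone within the brown adipocyte, was 7.48 higher than in SAT and 9.29 higher than in VAT, and Gnas, the stimulatory G protein alpha subunit, 3.93 and 3.30. Adrb3, the beta-3 receptor, was 3.32 higher than in SAT. Its sham level in VAT, 142 to 238 CPM in females and 32.4 to 326 CPM in males, overlapped that in BAT, 78.2 to 144 CPM and 108 to 215 CPM.

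Of 19 brown fat regulators, 14 were higher and 3 lower in BAT than in SAT, and 11 higher and 4 lower than in VAT. Zic1 and Lhx8, transcription factor genes that mark classical brown fat, were close to 0 in most libraries outside BAT: Zic1 ran from 7.32 to 27.6 CPM in sham BAT and had 1 count in all sham SAT and 2 in all sham VAT libraries. Ppara, the fatty acid receptor, was 4.71 higher than in SAT and 4.08 higher than in VAT. Klf11 had the most negative of the lower values against SAT, -1.13. In the list of white depot genes, 2 of 9 were lower in BAT than in SAT and 8 of 9 lower than in VAT. None was higher, or 1 against SAT without the libraries that stand apart. Over all genes tested, 37.5% were lower in BAT than in SAT and 29.1% lower than in VAT. The lower counts of regulators, and of white depot genes against SAT, lay below those shares. Wt1, a mesothelial and visceral fat gene, had no count in any sham BAT or SAT library and 8.81 to 73.0 CPM in VAT. The skeletal muscle genes moved with this contrast as well, 18 of 18 higher in BAT than in VAT and 8 of 18 higher than in SAT, and their part in the values of genes that muscle shares, such as Cox8b, Cpt1b, Fabp3 and Ppargc1a, was not tested across depots.

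Within BAT the genes varied together. Over the 24 BAT libraries, Pearson's r of log2 CPM with Ucp1 was 0.965 for Cidea, 0.966 for Otop1, 0.962 for Letmd1, 0.932 for Kcnk3 and 0.847 for Cox8b, each with a permutation p of 1e-05, the smallest that 100000 resamples can give, and an adjusted p of 1.2e-05 over the family of 6. Spearman's rho was 0.774, 0.777, 0.755, 0.704 and 0.717 in the same order, with adjusted permutation p from 6e-05 to 2.28e-04. Ppargc1a followed less closely, with r of 0.715 (adjusted permutation p = 3e-05) and rho of 0.450 (adjusted permutation p = 0.0294). Without the 2 libraries farthest from the median of Ucp1, those of rats 24 and 23, r was 0.731 for Cidea, 0.745 for Otop1, 0.755 for Letmd1, 0.596 for Kcnk3, 0.689 for Cox8b and 0.465 for Ppargc1a, so part of each r rests on those libraries. Within females r ran from 0.899 for Ppargc1a to 0.988 for Letmd1, and within males from 0.609 for Ppargc1a to 0.871 for Kcnk3, 12 libraries each. All these libraries share their depot, and counts scaled to one total are not free of each other.

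**Figure D2:**
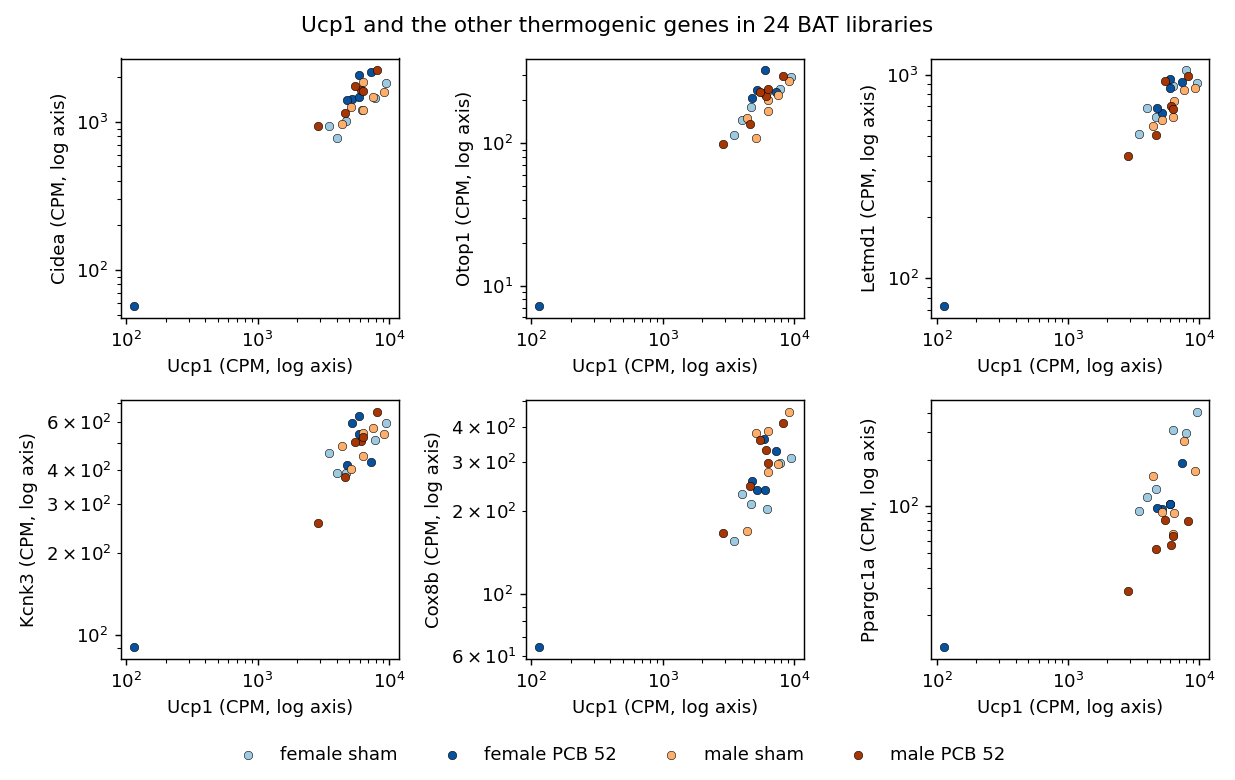
Level of Ucp1 against each of 6 other genes in the 24 BAT libraries, both in CPM on log axes, coloured by sex and treatment. The library of female PCB 52 rat 24 lies at the lower left of every panel, and Ppargc1a scatters most.

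Closest to Ucp1 by Spearman's rho over the 24 BAT libraries, among 10890 other genes ranked, were Ldha (0.914), Phyh (0.910), Rbfa (0.897), Pfkp (0.888), Plbd1 (0.887), Ndufa13 (0.881), Cdc37 (0.880), Higd1a (0.880), Chchd10 (0.878) and Gnas (0.874). Ldha and Pfkp are glycolytic, Phyh is peroxisomal, and Ndufa13 and Chchd10 are mitochondrial. In that order Otop1 stood at rank 246, Cidea at 252, Letmd1 at 335, Cox8b at 494, Kcnk3 at 548 and Ppargc1a at 1769. Over all 70 libraries of the 3 depots Gmpr led with a Pearson's r of 0.981 and Ppargc1a was the second of 14263 genes with 0.968.

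BAT of female PCB 52 rat 24 held 114 CPM of Ucp1, where the other 5 libraries of its group held 4779 to 7351 CPM. It had the lowest level among the 12 female BAT libraries for 7 of the 7 genes, among them Cidea at 57.0 CPM, Otop1 at 7.16, Letmd1 at 72.7, Kcnk3 at 90.4, Cox8b at 64.3 and Ppargc1a at 12.4. It was also lowest for 20 of 21 genes of mitochondrial fuel supply and for 9 of 18 brown fat regulators, beside 22.6% of all genes. Zic1 was 25.3 CPM there, inside the range of the sham libraries. The same library held 378 CPM of the leptin gene Lep, beside a median of 70.7 in the other 11 female BAT libraries, and 6991 CPM of Ckm beside 1334. It was highest of the 12 for 17 of 18 muscle genes, 5 of 6 progenitor genes and 4 of 5 immune genes, beside 34.4% of all genes. Of 11 mature adipocyte genes it was lowest for 8 and highest for none, and their sum was 25300 CPM beside 34700 to 47750 CPM.

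BAT of male PCB 52 rat 23 was a milder case. Its Ucp1 level was 2892 CPM, and it too was lowest of its 12 libraries for 7 of the 7 genes and for 16 of 21 genes of fuel supply, beside 14.9% of all genes. Lep stood at 348 CPM beside a median of 49.6, and Ckm at 58.4 CPM. The library was highest for all 6 white depot genes measured, 6 of 6 progenitor genes, 4 of 5 immune genes and 4 of 11 mature adipocyte genes, beside 31.9% of all genes. The muscle level, the mean log2 CPM of the muscle list, was therefore high in one of these libraries and low in the other. Over the 24 BAT libraries it correlated with none of the 7 genes after adjustment over the family of 7; the nearest was Otop1, with a Spearman's rho of -0.503 (permutation p = 0.0133, adjusted p = 0.0931) and a Pearson's r of -0.283 (permutation p = 0.191, adjusted p = 0.450), or -0.329 without the 2 libraries farthest from the median muscle level.

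Ucp1 also appeared in VAT with 10 counts or more, in 3 of the 6 female sham rats. It stood at 338 CPM in rat 4, 230 in rat 8 and 12.96 in rat 6, then at 1.29 in rat 10 and 0.29 in rat 12, with no count in rat 2. The 6 female PCB 52 rats held at most 0.133 CPM in VAT, and all 6 male sham rats had no count. In rat 4 the other genes were high as well: 161 CPM of Cidea, 18.9 of Ppargc1a, 23.03 of Cox8b, 18.2 of Otop1, 193 of Letmd1 and 653 of Kcnk3. Rat 8 held 84.8 CPM of Cidea, 13.5 of Ppargc1a, 9.48 of Cox8b, 10.3 of Otop1, 124 of Letmd1 and 395 of Kcnk3.

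The 2 libraries differed in what came with these genes. In rat 4 the excess over the median of the other 10 female VAT libraries, as a share of the sham BAT median of the same sex, was 6.13% for Ucp1, 7.41% for Ppargc1a, 8.50% for Otop1, 10.43% for Cox8b, 10.45% for Cidea, 13.03% for Letmd1 and 74.85% for Kcnk3. Dio2, at 48.7 CPM, and Fabp3, at 122 CPM, were high too, and the library was the highest of the 12 for 19 of 21 genes of fuel supply. It held no count of Zic1, which allows up to 3.73% of the BAT median, and none of Lhx8, which allows up to 6.88%. These limits rest on the median alone, and Zic1 ran from 7.32 to 27.6 CPM in female BAT outside rat 24. They are therefore not compared with the 7 shares above. Ckm and Acta1 were at 0.464 CPM from 3 counts each, but the myoglobin gene Mb was at 11.1 CPM from 72 counts, beside 0.256 to 1.00 CPM in the other 10 libraries. Lep was 193 CPM beside a median of 499.

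In rat 8 the muscle genes were high as well, 171 CPM of Ckm and 324 CPM of Acta1, and 16 of 16 muscle genes were highest of the 12 there. The library, labelled female, held 17 counts of Eif2s3y and 10 of Ddx3y, both Y-linked genes. Against female sham BAT medians the excess was 4.17% for Ucp1, 3.61% for Cidea, 4.29% for Cox8b, 4.61% for Otop1, 4.14% for Letmd1 and 4.91% for Ppargc1a. It was 21.8% for Kcnk3, whose level lay inside the 204 to 448 CPM of the female VAT libraries other than rats 4 and 8. Ckm stood at 9.63% and Acta1 at 9.90%. Lhx8 was at 20.1% from 10 counts, with a counting interval of 9.63% to 36.9%, and Zic1 at 1.09% from 1 count. Against male sham BAT medians, the only ones that hold Y-linked genes, Ucp1 was at 3.60%, Ppargc1a at 8.37%, Ckm at 4.78%, Eif2s3y at 4.23% and Ddx3y at 2.03%, so the share of muscle genes beside that of Ucp1 depended on the reference. What put these transcripts in either library was not tested. Some comparisons of female VAT are given with and without both. The fitted differences between BAT and VAT over both sexes include both rats. With rat 4 left out that of Ucp1 was 13.02 in log2 and that of Cox8b 10.23.

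**Figure D3:**
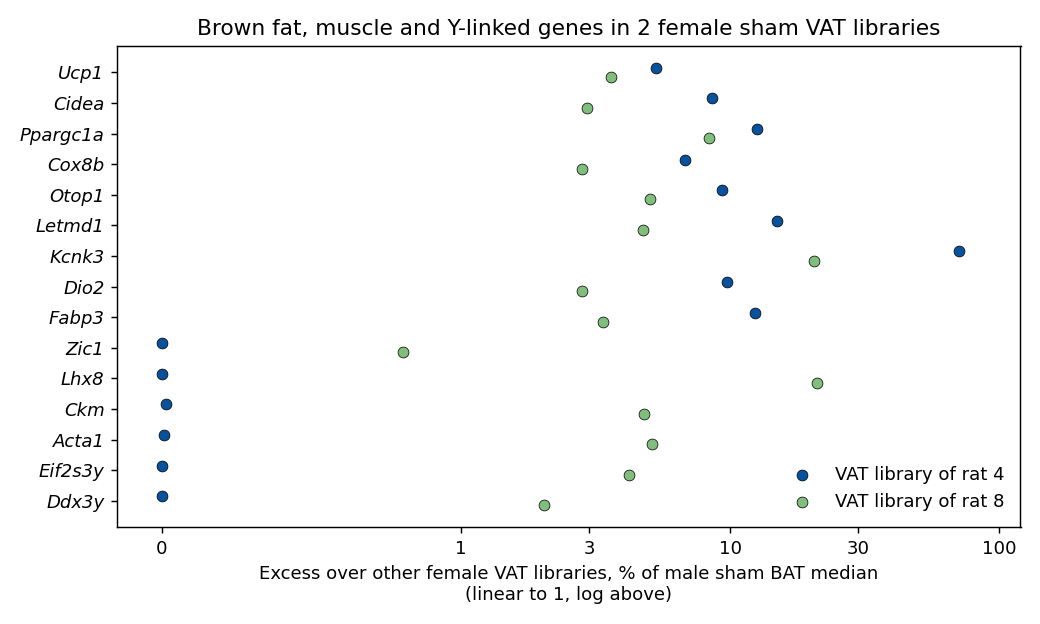
Excess of 15 genes in the VAT libraries of female sham rats 4 and 8 over the other female VAT libraries, in percent of the male sham BAT median, on an axis that is linear up to 1 and logarithmic above. Rat 8 shows Ckm at 4.78% and Ucp1 at 3.60%, where female BAT as the reference gives 9.63% and 4.17%, and rat 4 shows Zic1, Lhx8, Ckm, Acta1 and the Y-linked genes at or near 0.

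The effect of PCB 52 was fitted in each table of 1 sex and 1 depot, and again with both sexes together and a term for sex. None of the genes tested, 7 in BAT and those that passed the filter in SAT and VAT, was past the threshold in any of these fits by edgeR. The background was nearly empty too: 0.0% of genes tested were called in each of the 6 comparisons within a sex and depot, in both sexes of SAT and VAT and in the 3 interactions of sex and treatment, and 0.00918% (1 of 10891, Plekhf1) in both sexes of BAT. At an unadjusted p under 0.05 the counts were 388 genes in female and 1054 in male BAT, 605 and 165 in SAT, and 1066 and 715 in VAT. Genes tested were 10686 and 10687 in BAT, 11824 and 11459 in SAT, and 11143 and 11357 in VAT. Chance alone puts a share of about 0.05 of them there. Female BAT and male SAT lay below that share, female SAT near it, and male BAT, female VAT and male VAT above it. DESeq2 called 0 and 8 genes in female and male BAT, 0 and 0 in SAT, and 51 and 5 in VAT. Over both sexes the unadjusted counts were 1206 in BAT, 325 in SAT and 786 in VAT, and 266, 792 and 1243 for the interactions, where DESeq2 called 79, 0 and 11 and 0, 0 and 18.

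Ppargc1a in BAT came nearest. Female sham libraries held 93.5, 116, 129, 295, 309 and 407 CPM, and female PCB 52 libraries 12.4, 95.8, 98.1, 104, 104 and 190 CPM. Male sham libraries held 66.2, 91.1, 92.0, 157, 168 and 263 CPM, and male PCB 52 libraries 28.7, 53.0, 56.6, 64.3, 80.3 and 81.5 CPM. Each of the 12 libraries from exposed rats was under the mean of its own sham group, 225 ± 129 CPM in females and 140 ± 72.5 CPM in males (SD, n = 6), but the groups overlapped, with 1 female and 4 male PCB 52 libraries below the lowest sham library. The means under PCB 52 were 101 ± 56.4 and 60.7 ± 19.7 CPM (SD, n = 6).

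Over both sexes the log2 fold change of Ppargc1a was -1.21 (SE 0.333), with an unadjusted p of 0.00132 and an edgeR adjusted p of 0.170, so it was not called. Within females it was -1.18 (SE 0.544, edgeR adjusted p = 0.999) and within males -1.25 (SE 0.350, edgeR adjusted p = 0.434), and the interaction of sex and treatment was -0.09 (SE 0.668). DESeq2 called the gene, at -1.22 with an adjusted p of 0.0306, among 0.731% of 10811 genes. In edgeR's alternatives it was not called: without rat 24 it was -1.10 (adjusted p = 0.120), with muscle level as a covariate -1.30 (adjusted p = 0.140), and leaving out each rat in turn it ran from -1.36 to -1.08 (adjusted p from 0.109 to 0.306). Muscle sums in BAT overlapped between the groups, 363 to 32430 CPM in female sham and 570 to 65600 CPM in female PCB 52, and 823 to 54930 and 573 to 19160 CPM in males, and none of 18 muscle genes was called. Their fitted changes were positive for 17 of 18 in females (median 0.35) and negative for 18 of 18 in males (median -1.39) and over both sexes (median -0.53).

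**Figure D4:**
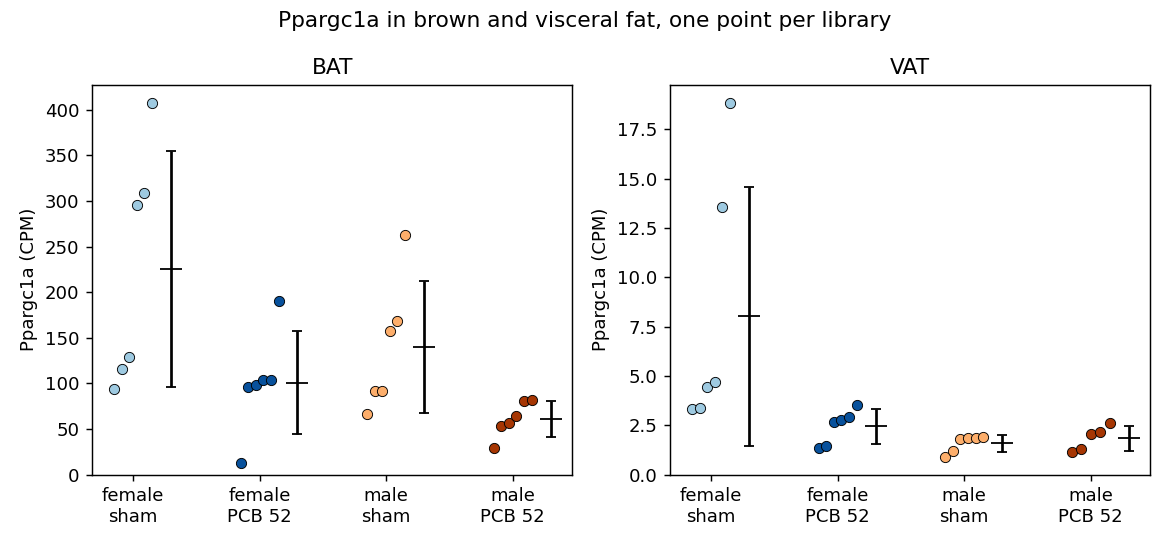
Level of Ppargc1a in CPM in BAT (left) and VAT (right), 1 point per library, by sex and treatment, with the mean and SD of each group beside the points. In BAT each point of the exposed groups is under the mean of its own sham group, and in VAT 2 female sham libraries, of rats 4 and 8, stand above the rest.

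The other 6 genes measured in BAT had fitted changes close to 0 over both sexes, with Ucp1 at -0.28 (SE 0.348), Cidea at 0.17 (SE 0.315), Cox8b at -0.05 (SE 0.226), Kcnk3 at -0.12 (SE 0.210), Otop1 at 0.05 (SE 0.326) and Letmd1 at -0.12 (SE 0.262). Without rat 24 Ucp1 was at -0.16, Cidea at 0.29 and Otop1 at 0.18, none of them called. In male BAT alone Ucp1 was at -0.27, or at -0.14 with rat 23 left out. For Ucp1 the sham and PCB 52 medians were 5503 and 5601 CPM in females and 6375 and 5807 CPM in males, and the groups overlapped. Standard errors were 0.210 to 0.348. In the same fit Ppargc1a at -1.21 (SE 0.333) was not called, so changes several times these errors can go undetected. The list of fuel supply had 0 of 21 genes called in BAT, with a median of -0.08, and regulators, signalling genes and secreted factors had none called either.

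Of the listed pathway and marker genes in BAT, the smallest p over both sexes belonged to Vwf at -0.36 (edgeR adjusted p = 0.147), an endothelial gene, to Zfp516 at -0.44 (adjusted p = 0.186), a regulator of Ucp1, and to Ebf2 at 0.33 (adjusted p = 0.231), a factor of brown adipocyte identity. Dio2, like Ppargc1a a gene that cAMP signalling induces, was lower in its medians in both sexes, 423 under PCB 52 beside 1054 CPM in females and 198 beside 487 CPM in males. Its fitted change was -1.59 in males (SE 0.489, unadjusted p = 0.00666, edgeR adjusted p = 0.441) and -1.29 over both sexes (SE 0.443, edgeR adjusted p = 0.255), so it did not pass; the both-sex value was looked up after that of males was seen.

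In SAT none of the thermogenic genes tested reached an unadjusted p under 0.05 within a sex, and fitted changes ran from -0.81 for Cox8b in females to 0.65 for Cidea in males. Without SAT rat 19 the male value of Cidea was 0.07. In female VAT Ppargc1a was 3.33 to 18.9 CPM in sham and 1.33 to 3.52 CPM in PCB 52 libraries, a log2 change of -1.68 (SE 0.478, unadjusted p = 0.00336, edgeR adjusted p = 0.469). Without the VAT libraries of rats 4 and 8 it was -0.64 (adjusted p = 0.793). In male VAT the change was 0.19 (SE 0.293), or 0.07 without the library of rat 13, and the interaction of sex and treatment was 1.88 (SE 0.610, unadjusted p = 0.00552, adjusted p = 0.405), or 0.70 without the libraries that stand apart. Over both sexes of VAT Otop1 was at -1.47 (unadjusted p = 0.0162, adjusted p = 0.619) and at -0.51 without those libraries.

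Kcnk3 had fitted changes of opposite sign in VAT of the 2 sexes, and neither passed the threshold. Its fitted change was -0.44 in females (SE 0.229, edgeR adjusted p = 0.558). In males it was 0.96 (SE 0.456, edgeR adjusted p = 0.747), or 1.17 without the library of rat 13. The female value includes sham rats 4 and 8, at 653 and 395 CPM, and is not given without them. The other female VAT libraries held 204 to 448 CPM. The interaction was 1.40 (SE 0.514, unadjusted p = 0.0123, edgeR adjusted p = 0.405), and 1.34 without the libraries that stand apart.

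**Figure D5:**
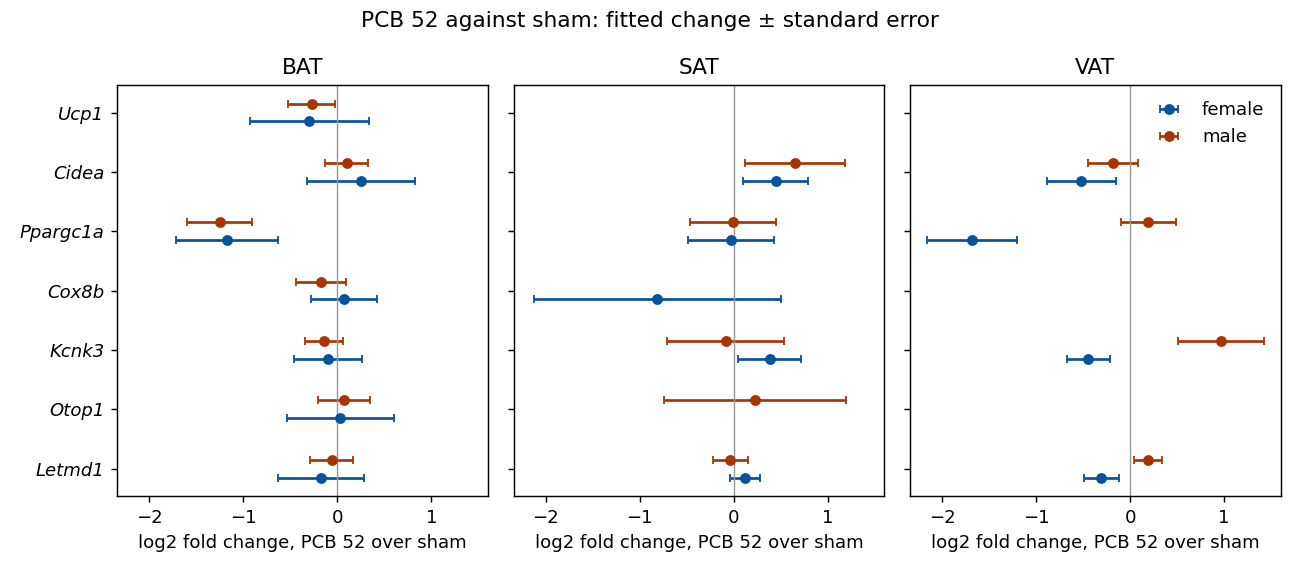
Fitted log2 fold change of PCB 52 over sham with its standard error for 7 genes in BAT, SAT and VAT, females in blue and males in brown; a gene that did not pass the expression filter of a comparison has no point. Ppargc1a in BAT is near -1.2 in both sexes, and in VAT it is low in females, where it was -0.64 without sham rats 4 and 8.

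Sham males and females were compared within each depot. In BAT none of the 7 genes was called, beside 0.0652% of 10730 genes (7, among them Xist, Eif2s3y and Ddx3y of the sex chromosomes), and the fitted differences nearest the threshold were 0.51 for Cox8b (unadjusted p = 0.0568) and -0.68 for Ppargc1a (unadjusted p = 0.146). A p above the threshold does not show that the sexes are alike, and each group held 6 rats.

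In SAT 1 of the 5 genes tested was called, beside 1.09% of genes tested. Cidea was 3.79, 5.88, 9.58, 13.1 and 14.2 CPM in female sham rats and 35.0, 38.1, 40.3, 44.9, 56.3 and 56.4 CPM in male sham rats, with no overlap. It was higher in males by 2.45 in log2 (SE 0.298, edgeR adjusted p = 0.00408), and by 2.38 without rat 8 (adjusted p = 0.00475). The summed mature adipocyte genes had a median of 10860 CPM in female and 30270 CPM in male sham SAT, with ranges of 6641 to 40820 and 5615 to 36050 CPM that overlap, and the mammary genes a median of 19980 and 74840 CPM; their part in the difference was not tested. Kcnk3 had a fitted difference of 1.34 (adjusted p = 0.200). Cox8b at -0.91, Letmd1 at 0.36 and Ppargc1a at 0.45 were not called either.

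In VAT 3 of the 5 genes tested were called, all lower in males, beside 11.5% of 11203 genes tested in either direction. Kcnk3 was 273 to 653 CPM in female sham rats (median 355) and 40.1 to 200 CPM in male sham rats (median 64.8), with no overlap, a log2 difference of -2.28 (SE 0.399, adjusted p = 0.00357) and -2.01 without rats 4 and 8 (adjusted p = 0.0199). Ppargc1a was lower in males by -2.44 (SE 0.487, adjusted p = 0.00693) and by -1.40 without those rats (adjusted p = 0.0158). Letmd1 was lower by -0.83 (SE 0.213, adjusted p = 0.0245), a call that was lost without them, at -0.52 (adjusted p = 0.0755). Cidea had a fitted difference of -0.17 (adjusted p = 0.812), which was 0.53 without them. Otop1 had a fitted difference of -2.10 (adjusted p = 0.0933), which was -1.30 with rat 4 left out.

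The other lists of the pathway were mixed in VAT. Of 21 fuel supply genes, 7 were lower in males and none higher, or 3 without rats 4 and 8, led by Ucp3 at -2.09, Pdk4 at -1.92 and Acot11 at -1.81. Irf4, a partner of the coactivator in brown fat, was lower in males by -4.85 (edgeR adjusted p = 2.65e-04), from 60.9 to 468 CPM in females to 4.28 to 13.1 CPM in males. Of 17 regulators tested 3 were lower in males, Irf4, Zfp516 and Cebpb, and 2 higher, Hlx by 0.96 and Ebf2 by 0.67. Of 8 secreted factors 2 were higher and 2 lower. Hoxc10, a gene of regional identity, was 10.9 to 19.8 CPM in females and had no count in 5 of 6 males (-5.29, adjusted p = 0.00194). Whether the same visceral pad was taken from males and females is not given in the labels, so sex and pad cannot be told apart here.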

How the data were processed

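RNA was enriched by poly(A) capture or by removing rRNA; the labels do not say which. Per the submitters' processing notes, HISAT2 with build rn6 and FastQC were used; versions, counter, annotation and strand use: not given in the sources used here, so antisense and overlapping genes have uncertain values. Each of the 6 tables that the authors deposited, by sex and depot, holds whole read counts by gene. The authors' female VAT table was treated as estimated counts, since 5 lines of spreadsheet summaries stand below its genes; they were left out, and its gene lines, all whole, were used as deposited. Symbols came from a RefSeq table of GRCr8, which matched 15230 of 15319 gene numbers.

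Tests were run in edgeR 4.0.16 under R 4.3.3 (TMM, the default expression filter, robust quasi-likelihood F test, Benjamini-Hochberg threshold of 0.05 over all genes tested). The SE given with edgeR values is the size of the log2 fold change divided by the square root of F. It is uncertain where a group has almost no counts. Depots were compared over sham libraries in 1 fit of depot and sex, PCB 52 with sham by sex and depot, over both sexes and by interaction, and sham males with sham females. CPM of single libraries used plain totals; correlations used log2 CPM (prior count 2) and 100000 resamples (scipy 1.17.1). Alternatives were DESeq2 1.42.0, its size factors in edgeR, no expression filter, each animal left out, each sex alone, the animal as a block, muscle level as a covariate, and libraries that stand apart left out; the last was added for the sex comparisons after the files were seen. The scripts were tested on simulated data.

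The genes, lists and tests were chosen with earlier results of these data known. The listed genes were to be named in each comparison, but some that were not called are left out. Of the pathway lists, up to 3 genes each way past the threshold were taken, or the 3 of smallest p where none passed. Examples in the text are taken from these. Levels of Adrb3, Zic1, Wt1 and Plin1, values of single libraries and Dio2 over both sexes were picked after the values were seen. Planned families of correlations came to 6 and 7 genes, since Elovl3 was near 0 and Prdm16 was not analysed here. No library repeated another: over 170 pairs within groups, 0 were identical and chi-square per gene was at least 7.03. Same-numbered libraries of different depots deviated from their group means with a median r of 0.109 over 34 pairs, against -0.0276 over 170 pairs with different numbers. Each library comes from 1 rat. Within a depot, p-values measure the spread between these rats. Between depots the main fit counts libraries of the same number as independent, so its p-values do not measure that spread. The values of 1 listed signalling gene are not reported here.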

Additional observations from a re-analysis of the deposited data

Results flagged for a closer look

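Values were taken for each gene and group with at least 10 counts in a library, which made 74 sets. In 11 of them a library lay far from the others of its group. A chance rate of about 1 set in 20 would need separate sets of normally distributed values. Sets here shared libraries, and a set could pass the count limit through the 1 library then flagged. The 11 sets are therefore a description and no test against chance. Of these, 4 were BAT of female PCB 52 rat 24, lower than the other 5 libraries of its group in Ucp1 (113.55 CPM beside 4779 to 7351), Cidea (56.986 beside 1396 to 2156), Otop1 (7.1583 beside 208 to 326) and Letmd1 (72.706 beside 647 to 950). VAT of female sham rat 4 was high in Cidea (161.05 CPM beside 42.5 to 84.8) and in Letmd1 (193.04 beside 90.8 to 124).

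Elovl3 in SAT of male PCB 52 rat 19 was 86.165 CPM where the other 5 libraries of the group had no count. Cox8b in SAT of female PCB 52 rat 18 was 22.211 CPM beside 0 to 4.02, in a library that held 3567 CPM of the muscle gene Ckm. Otop1 was 7.2551 CPM in SAT of male sham rat 9, beside 0.255 to 2.52, and 5.5758 CPM in VAT of female PCB 52 rat 14, beside 0.138 to 1.30. Cidea was 81.589 CPM in VAT of female PCB 52 rat 20, beside 31.7 to 46.0.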

How the results depend on the processing

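Over the fitted values of single genes and their alternatives, 1148 kept their direction and their side of the threshold, 33 turned direction, 10 lost and 7 gained a call; the cause was not tested. DESeq2 called 51 genes in female VAT, 8 in male BAT, 5 in male VAT, 79 in BAT and 11 in VAT of both sexes, 18 in the VAT interaction, and 72, 1043 and 2128 between the sexes in BAT, SAT and VAT, where edgeR called 0, 0, 0, 1, 0, 0, 7, 127 and 1291. For PCB 52 in BAT of both sexes edgeR called 0 genes with no expression filter, 0 with the muscle covariate and 3 without rat 24. In females alone 3011 genes differed between BAT and VAT, and in males alone 2667 between SAT and VAT. Without the libraries that stand apart 563 genes differed between the sexes in SAT and 554 in VAT.

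With each animal left out the calls for PCB 52 ran from 0 to 1 in male BAT (1 without rat 19), 0 to 12 in BAT of both sexes (12 without rat 4), 0 to 2 in VAT of both sexes and 0 to 3 in the VAT interaction. Between the sexes they ran from 5 to 9 in BAT, 15 (without rat 5) to 563 (without rat 8) in SAT and 844 to 1633 in VAT. They ran from 7374 to 8489 for BAT against SAT, 5889 to 7270 for BAT against VAT and 4873 to 6325 for SAT against VAT.

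Small PCB 52 effects turned sign. In female BAT Kcnk3 was 0.12 and Letmd1 0.063 without rat 24, and Otop1 -0.10 with the muscle covariate; in both sexes Cox8b was 0.040 without rat 24 and Otop1 -0.012 with the covariate. With each rat left out the ranges in female BAT were -0.074 to 0.28 for Cox8b, -0.22 to 0.12 for Kcnk3, -0.15 to 0.29 for Otop1 and -0.29 to 0.063 for Letmd1. In male BAT they were -0.053 to 0.21 for Cidea, -0.085 to 0.21 for Otop1 and -0.20 to 0.063 for Letmd1, and in both sexes -0.13 to 0.040 for Cox8b and -0.034 to 0.18 for Otop1. Between the sexes they were -0.24 to 0.045 for Otop1 in BAT and -0.38 to 0.30 for Cidea in VAT, which was 0.53 without rats 4 and 8. Between SAT and VAT in males alone Otop1 was 0.69 and Ppargc1a 0.17.

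With the animal as a replicate block 7345 genes differed between BAT and SAT, 6095 between BAT and VAT and 4789 between SAT and VAT, beside 7839, 6461 and 5608 without it; the only call of the listed genes that changed was Ppargc1a between SAT and VAT. The same-number reading comes from the titles. Of 34 such pairs, 20 deviated together beyond the limit set for pairing, as did 32 of 170 pairs with different numbers. Depth limits Elovl3, Otop1 and Ucp1 outside BAT, where a few counts set each value.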
